A study of Mus musculus with 6 samples.

Results

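The 9 genes Fn1, Tnc, Thbs1, Thbs2, Thbs3, Postn, Sparc, Vcan and Ecm1 encode secreted glycoproteins and a proteoglycan of the extracellular matrix. They were taken by symbol from a deposited table of 24062 genes, and all 9 were found in it and had enough counts to be tested. The set was proposed with results of the p27 OE against EV control comparison known, so the values of its members in that comparison are given as a description, without a test. RNA was sequenced from mouse embryonic fibroblasts of the C57BL/6 strain, connective tissue cells grown from embryos. The p27 OE group carried a lentivirus for overexpression of p27, an inhibitor of cyclin-dependent kinases encoded by Cdkn1b. It was harvested on day 4 and is labelled non-senescent. The other group is labelled EV control at day 4. Only the titles of this group carry a dataset number, a difference in labels that coincides with the groups. What EV stands for, what these cells received, which promoter drove p27, and whether the libraries of a group came from separate cultures were not stated in the labels. P-values therefore measure only the spread between these libraries.

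Fibronectin is secreted as a dimer and pulled into fibrils by cells through integrins, and its fibrils in turn serve as a scaffold for other matrix proteins. Tenascin C, the thrombospondins, periostin and SPARC are matricellular proteins: they are made in quantity during development, wound repair and fibrosis, and they tune how cells hold on to the matrix more than they give it strength. Versican is a large chondroitin sulfate proteoglycan that binds hyaluronan, and ECM1 is a secreted glycoprotein of skin and connective tissue. Fibroblasts are a main source of all these proteins in connective tissue.

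Each group had 3 libraries, numbered 1 to 3 in their titles, with total counts from 34920728 to 52098220. Cdkn1b stood between 49.9 and 52.2 CPM (the usual depth-scaled count, on library sizes adjusted by TMM) in EV control and between 419 and 978 CPM in p27 OE. The fibroblast markers Col1a1 and Col1a2 were at 22733 to 26723 CPM and 18364 to 20592 CPM, while Pdgfra (84.9 to 304 CPM) and Lum (24.5 to 122 CPM) varied more between libraries. Of the other cell types, the defining markers of endothelium (Pecam1, Cdh5), epithelium (Epcam, Cdh1) and skeletal muscle (Myod1, Myog, Ckm) were under 1 CPM in all 6 libraries. Further markers of these lists were low but present, with Kdr at least 0.989 CPM in each library, Tek up to 2.37, Krt8 up to 3.39, Krt18 up to 9.15 and Myh3 up to 1.05. Number 1 differed from numbers 2 and 3. In both of its libraries Ddx3y, a Y-linked gene, was under 0.1 CPM and Xist was at 317 and 477 CPM, against 54.3 to 65.5 CPM and 0.504 to 9.57 CPM in the others. For the members and the related lists, calls in the blocked fit that these libraries decide are given with and without them below.

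The stretch before the transcription start is shown for 4 of the genes, 3 that were higher in p27 OE within each library number (Tnc, Ecm1 and Vcan) and, for contrast, Thbs2, which was not. Each run is the 250 bases before a RefSeq start on GRCm38.p6, written 5′ to 3′ on the strand of the gene, which is the minus strand for all 4. Capitals mark matches on either strand to the motifs searched: the CArG box of serum response factor, CATTCC (TEAD factors), TGANTCA (AP-1), TGACGTCA (cyclic AMP response element), CCAAT (nuclear factor Y), the TATA element TATAAA and the GC box GGGCGG. The Tnc stretch lies at chr4:64047016-64047265, that of Ecm1 at chr3:95739570-95739819, that of Vcan at chr13:89742513-89742762 and that of Thbs2 at chr17:14694263-14694512.
Tnc: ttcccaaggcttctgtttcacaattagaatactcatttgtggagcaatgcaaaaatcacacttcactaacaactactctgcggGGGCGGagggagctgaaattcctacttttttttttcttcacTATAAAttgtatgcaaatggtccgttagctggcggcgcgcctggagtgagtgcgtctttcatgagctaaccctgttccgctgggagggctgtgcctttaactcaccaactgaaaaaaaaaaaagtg
Ecm1: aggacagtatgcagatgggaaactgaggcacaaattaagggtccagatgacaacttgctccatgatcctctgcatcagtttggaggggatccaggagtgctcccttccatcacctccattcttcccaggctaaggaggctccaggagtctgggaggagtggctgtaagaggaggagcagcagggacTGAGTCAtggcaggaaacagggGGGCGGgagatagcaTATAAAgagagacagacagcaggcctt
Vcan: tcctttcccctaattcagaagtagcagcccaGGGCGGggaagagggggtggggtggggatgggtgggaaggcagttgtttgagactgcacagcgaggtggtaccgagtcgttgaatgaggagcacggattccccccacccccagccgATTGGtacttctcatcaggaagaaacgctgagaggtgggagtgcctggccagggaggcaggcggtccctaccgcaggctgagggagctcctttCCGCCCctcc
Thbs2: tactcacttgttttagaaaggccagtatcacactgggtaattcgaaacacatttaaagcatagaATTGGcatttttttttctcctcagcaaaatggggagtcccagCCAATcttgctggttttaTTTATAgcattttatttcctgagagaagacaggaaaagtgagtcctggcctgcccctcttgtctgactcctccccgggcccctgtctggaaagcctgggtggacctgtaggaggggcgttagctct

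Stretches of this kind were at hand for 7 of the 9 genes, in 9 windows, with a second start for Tnc and for Postn. Fn1 and Thbs1 had no such stretch, so nothing here applies to them. The AP-1 sequence was found once, in Ecm1, from 64 to 58 bases before the start, and 6.75% of all 32851 windows hold it. TATAAA was found at 27 to 22 bases before the start of Ecm1, at 26 to 21 bases before the second start of Postn and at 126 to 121 bases before the start shown for Tnc and, on the other strand, for Thbs2. Of all windows, 12.4% hold it anywhere. The Tnc, Thbs3, Vcan and Ecm1 stretches hold GGGCGG (32.7% of all windows), those of Thbs2, Thbs3 and Vcan hold CCAAT (33.8%), and none of the 7 genes had a match to the CArG box (1.47%), CATTCC (12.6%) or TGACGTCA (1.55%) in these windows. No matches of different motifs overlapped, and a match is a string of letters, not a measured binding site.

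Fibronectin had the largest log2 fold change of the 9 genes with all 6 libraries, both with and without the block, although the ratio of Tnc was larger within numbers 2 and 3 and its blocked value was larger without number 1 (0.77 against 0.73). The EV control libraries 1, 2 and 3 had 6598.5, 9000 and 10617 CPM of Fn1, and the p27 OE libraries had 13637, 16431 and 15900 CPM. Every p27 OE library was above every EV control library, although the lowest of each group was the library numbered 1. The ratio of p27 OE to EV control within libraries of the same number was 2.07, 1.83 and 1.50 for numbers 1, 2 and 3. It was largest where the EV control level, its denominator, was lowest. Fn1 occupies bases 71585520 to 71653200 of chromosome 1, minus strand (GRCm38), with 17 annotated transcripts. The table counts reads per gene, so the forms of fibronectin with and without the alternatively spliced extra domains were not separated.

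Tnc encodes tenascin C, a many-armed matrix protein that loosens the hold of cells on fibronectin. The EV control libraries 1, 2 and 3 had 1463, 2913 and 3232 CPM of it and the p27 OE libraries 2466, 5505 and 4994 CPM. The groups overlapped, because p27 OE 1 lay below EV control 2 and 3, but within each number the p27 OE library was the higher, by ratios of 1.69, 1.89 and 1.54. Tnc occupies bases 63959785 to 64047015 of chromosome 4, minus strand.

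The 3 thrombospondin genes did not behave alike. Thbs1 encodes thrombospondin 1, which restrains blood vessel growth and can release TGF-beta from its latent form. Its EV control values were 8115, 14291 and 14804 CPM for numbers 1, 2 and 3, and its p27 OE values 12747, 21434 and 21087 CPM. Thbs1 spans bases 118111876 to 118127133 of chromosome 2, plus strand. As for Tnc, p27 OE 1 was below EV control 2 and 3, and the ratios within numbers, 1.57, 1.50 and 1.42, were close to each other. Thbs2, whose product is the nearest relative of thrombospondin 1, had EV control values of 1508, 1406 and 1537 CPM and p27 OE values of 1369, 1646 and 1494 CPM, in the order of the numbers. Its ratios were 0.908, 1.17 and 0.972, so the direction differed between the numbers. Thbs3, from the branch of the family without the domain that thrombospondins 1 and 2 share with procollagen, had EV control values of 120.0, 90.1 and 93.2 CPM and p27 OE values of 129, 92.0 and 87.2 CPM, with ratios of 1.07, 1.02 and 0.935. The Thbs3 exons overlap those of Mtx1 on the opposite strand by 318 bases, 6.59% of their length. The library kit does not mark strand, so reads there cannot be assigned, and Mtx1 itself had 1247 to 1925 counts per library.

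Postn and Sparc, both highly expressed, were each mixed in direction across the library numbers. Postn encodes periostin, which links collagen to tenascin C and fibronectin. Its EV control values were 3060, 3346.5 and 3633 CPM for numbers 1, 2 and 3, and its p27 OE values 2980, 3999.8 and 3454 CPM. It was higher in p27 OE for number 2 (ratio 1.20) and lower for numbers 1 and 3 (0.974 and 0.951). Sparc encodes a calcium-binding protein that chaperones collagen. The EV control values were 7186, 6391 and 6512 CPM and the p27 OE values 6829, 8130 and 7895 CPM, in the same order, and the groups overlapped through number 1. Its ratio was below 1 for number 1 (0.950) and above 1 for numbers 2 and 3 (1.27 and 1.21).

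Vcan and Ecm1 were both higher in p27 OE within each number, in different ways. For numbers 1, 2 and 3, Vcan had 495, 323 and 358 CPM in the EV control libraries and 705, 369 and 392 CPM in the p27 OE libraries, with ratios of 1.42, 1.14 and 1.09. Both libraries numbered 1 were above the other 4, so the groups overlapped and the largest ratio came from the number with the highest level. Ecm1 had 159, 156 and 154 CPM in the EV control libraries and 188, 211 and 194 CPM in the p27 OE libraries, with ratios of 1.19, 1.35 and 1.26. Its EV control libraries were closer together than those of any other member (156 ± 2.37 CPM, mean ± SD, n = 3), and the groups did not overlap.

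**Figure D1:**
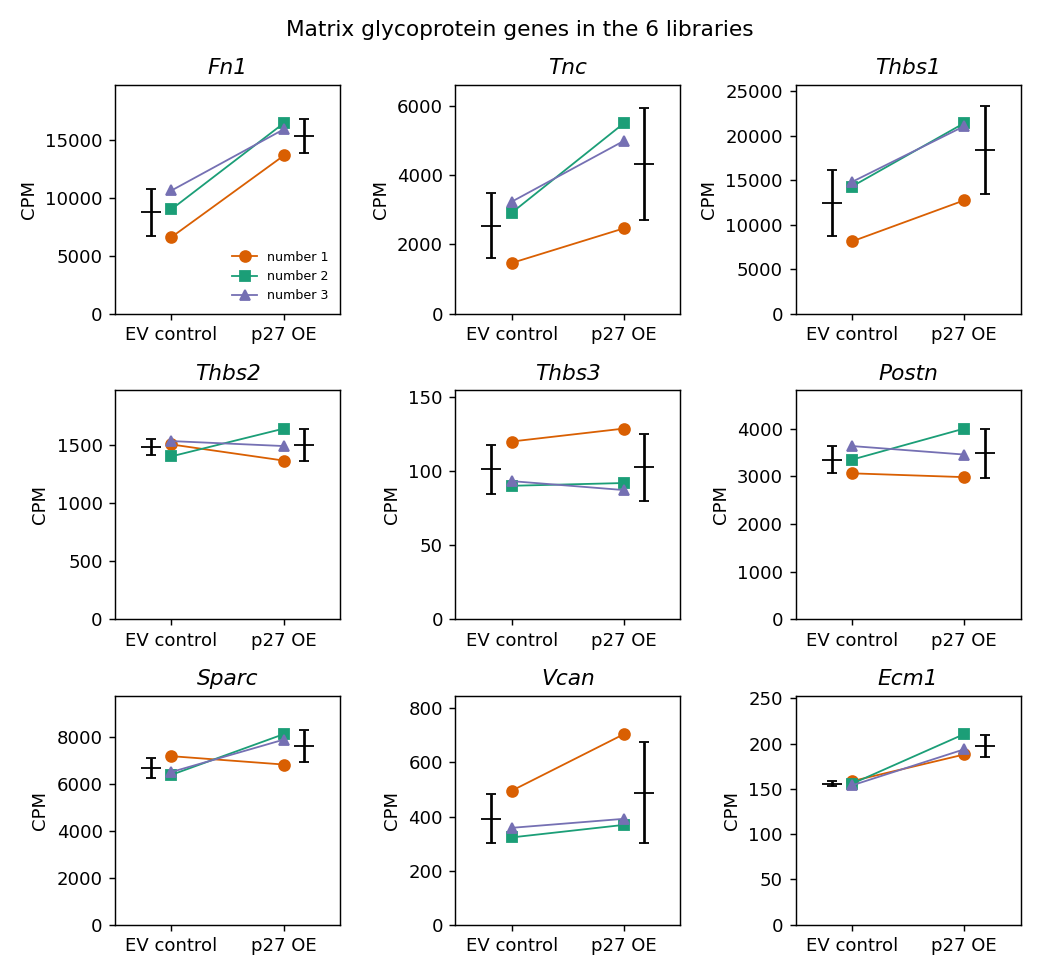
CPM of the 9 genes (vertical axes, from 0) in EV control and p27 OE, with lines joining libraries of the same number and black bars for the mean ± SD of each group (n = 3). Fn1 and Ecm1 are the genes whose groups do not overlap. In Fn1, Tnc, Thbs1 and Postn the line of number 1 runs below the others, and in Vcan and Thbs3 above them.

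Per length of annotated exon, Thbs1 was the most abundant of the 9 transcripts. Its level was 2042 ± 613 CPM per kilobase in EV control (mean ± SD, n = 3) and 3034 ± 810 in p27 OE. Sparc followed at 1768 ± 113 and 2011 ± 183, Fn1 at 748 ± 173 and 1311 ± 127, Postn at 385 ± 32.9 and 399.7 ± 58.6, and Tnc at 326 ± 121 and 556 ± 209 CPM per kilobase. Thbs2, at 212 ± 9.88 and 215 ± 19.8, stood above Ecm1, at 61.9 ± 0.942 and 78.4 ± 4.65. Vcan, at 27.1 ± 6.30 and 33.8 ± 13.0, and Thbs3, at 21.0 ± 3.41 and 21.3 ± 4.72 CPM per kilobase, were the lowest. Neighbours whose library values overlapped in EV control were Thbs1 and Sparc, Postn and Tnc, Tnc and Thbs2, and Vcan and Thbs3. In p27 OE the mean of Tnc was above that of Postn, with overlapping values, a change of 1 place in the order, and neither gene overlapped Thbs2. The overlapping neighbours there were Thbs1 and Sparc, Tnc and Postn, and Vcan and Thbs3. Exon lengths are unions over all GENCODE transcripts, from 2.52 kilobases for Ecm1 to 14.46 for Vcan, so genes with long alternative exons come out low.

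**Figure D2:**
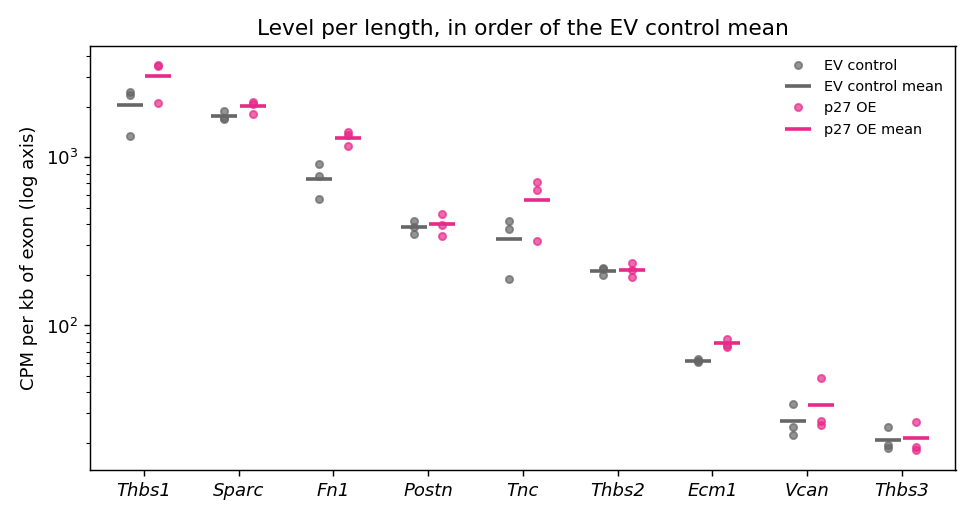
CPM per kilobase of exon on a log axis for the 9 genes in order of their EV control mean, with points for libraries and bars for the group mean (n = 3). The levels span from 21.0 CPM per kilobase for Thbs3 to 2042 for Thbs1 in EV control.

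Together the 9 genes took 2.98%, 3.84% and 4.09% of all counts in the EV control libraries and 4.20%, 5.49% and 5.43% in those of p27 OE, in the order of the numbers. Every p27 OE library gave them a larger share than any EV control library. Fn1 and Thbs1 made up most of that share, with 1.53% to 2.54% of all counts in EV control and 2.70% to 3.62% in p27 OE. By mean CPM over the 6 libraries Thbs1 ranked 3 and Fn1 ranked 4 among all genes in the table, Sparc 7, Tnc 20 and Postn 21. In RNA from a whole culture, more cells of a kind and more RNA per cell cannot be told apart.

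In the edgeR fit without pairing, no gene was called at an adjusted p of 0.05 (0% of 14090 tested), and 1017 genes had an unadjusted p under 0.05. The uncalled genes included the overexpressed Cdkn1b, although its group mean was 51.1 CPM for EV control against 619 for p27 OE. A count of 0 from this fit, here and for the lists below, is therefore not evidence that genes were unchanged. In that fit the log2 fold changes were 0.81 ± 0.18 (SE, n = 3 per group) for Fn1, 0.77 ± 0.39 for Tnc, 0.57 ± 0.29 for Thbs1, 0.34 ± 0.07 for Ecm1 and 0.32 ± 0.29 for Vcan. DESeq2 without pairing called 89 genes (0.671%), among them the members Fn1 and Ecm1, both higher, and limma-voom called 0. With the library number as a block, edgeR called 1047 genes (7.43%), 535 higher (3.80%) and 512 lower (3.63%). The deviations of the libraries support the number as a pairing for number 1 more clearly than for 2 and 3. Xist was higher in number 2 than in number 3 in both groups. Of the 9 members, 5 were among the higher genes (Fn1, Tnc, Thbs1, Vcan and Ecm1) and 0 among the lower. Since the set was chosen with this contrast known, nothing is read from that count. The blocked log2 fold changes were 0.83 ± 0.08 for Fn1, 0.77 ± 0.07 for Tnc, 0.58 ± 0.06 for Thbs1, 0.34 ± 0.06 for Ecm1 and 0.28 ± 0.07 for Vcan (SE, n = 3 pairs). For Sparc, Postn, Thbs2 and Thbs3 they were 0.18 ± 0.08, 0.05 ± 0.07, 0.02 ± 0.07 and 0.01 ± 0.06. The median over the 9 members was 0.28, against -0.0012 over all tested genes. Nothing is read from this difference either, because the members were chosen with the contrast known.

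The SE of Tnc fell from 0.39 to 0.07 and that of Thbs1 from 0.29 to 0.06 with the block, and in both genes libraries of the same number were high or low together. Without both libraries numbered 1, the blocked log2 fold change of Vcan was 0.16 and that of Sparc 0.31, against 0.28 and 0.18 with all 3 numbers, and Sparc then stood among the called genes in place of Vcan. Vcan was also not among them with total counts without the 9 members or with limma-voom and the block. Fn1, Tnc, Thbs1 and Ecm1 were among the called genes in each of the 9 blocked settings, which is given as a description like the values themselves. Of all tested genes, 931 (6.61%) had all p27 OE libraries above all EV control libraries, as had Fn1 and Ecm1, and 3082 (21.9%) were higher in p27 OE within each number, as were 5 members. In the other direction, with 8.28% of all genes below in every library and 23.7% lower within each number, there was 0 of the 9.

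**Figure D3:**
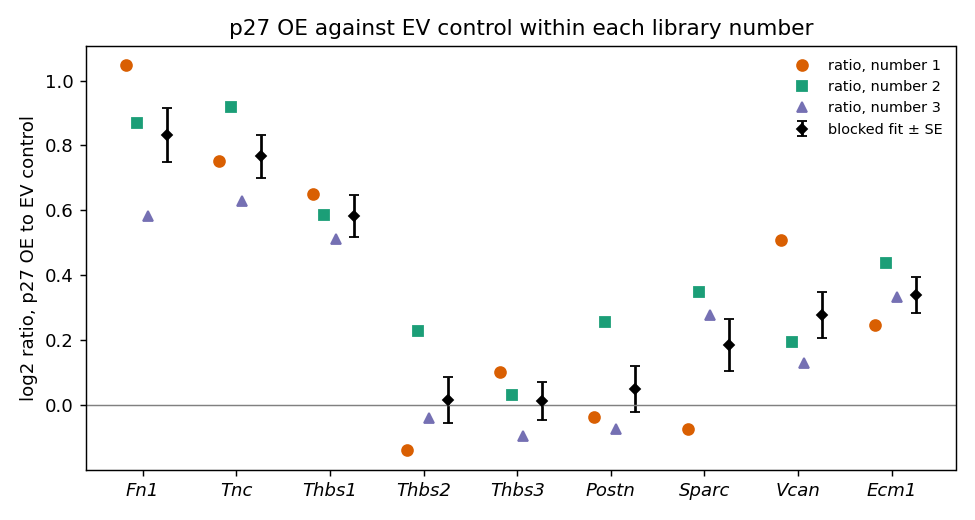
Log2 ratio of p27 OE to EV control (vertical axis) for each gene within library numbers 1, 2 and 3, with the log2 fold change of the blocked edgeR fit ± SE as a black diamond. Fn1, Tnc, Thbs1, Vcan and Ecm1 have all 3 ratios above 0, and in Thbs2, Thbs3, Postn and Sparc they fall on both sides.

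The members also differed between the library numbers, a contrast that did not serve to choose them. Number 1 stood apart from numbers 2 and 3 in Xist and Ddx3y as well, and what goes with that difference cannot be told apart from the number. An edgeR F test of the number in the blocked fit, added after the data were seen, called 4402 of 14090 genes (31.2%) and 6 of the 9 members. Tnc (adjusted p 5.05e-07), Thbs1 (5.97e-06) and Postn (0.0489) were lower in both libraries numbered 1 than in the other 4, as were 24.5% of all tested genes. Vcan (4.48e-05) and Thbs3 (0.000177) were higher in both, again as were 24.5% of all genes. For Fn1 (0.0100) the library numbered 1 was the lowest of its group in each group. Thbs2, Sparc and Ecm1 had adjusted p of 0.709, 0.951 and 0.661. In size, the libraries numbered 1 had 0.474 times the Tnc and 0.578 times the Thbs1 of the mean of numbers 2 and 3 (geometric means), and 1.64 times the Vcan and 1.37 times the Thbs3. For Tnc this was a larger difference than that between the groups (1.70-fold in the blocked fit), and for Fn1, at 0.755 times, it was smaller (1.78-fold).

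**Figure D4:**
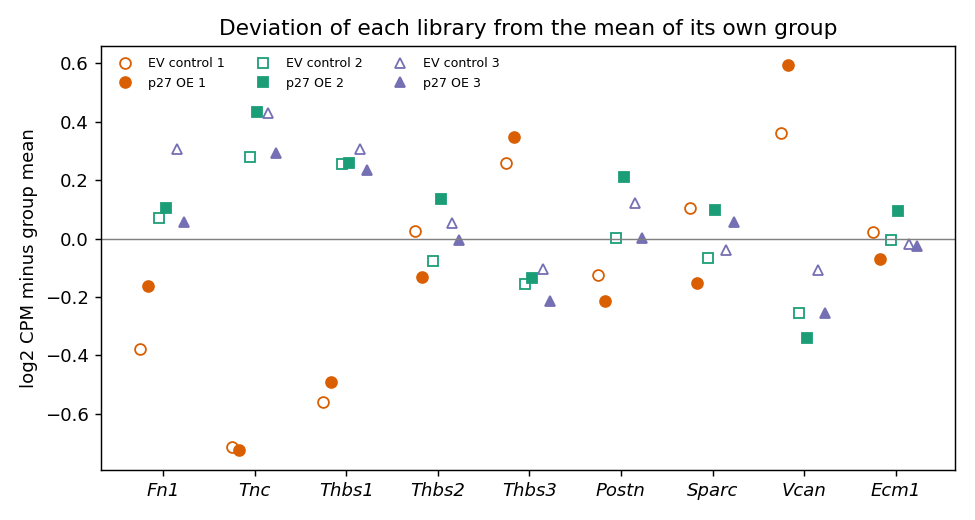
Log2 CPM of each library minus the mean of its own group (vertical axis) for the 9 genes, open symbols for EV control and filled for p27 OE. Both libraries numbered 1 lie below 0 in Fn1, Tnc, Thbs1 and Postn and above 0 in Vcan and Thbs3.

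Tnc and Thbs1 followed each other most closely of the 36 pairs of members, with a Pearson r of log2 CPM of 0.996 over the 6 libraries. Fn1 correlated with Tnc at 0.87 and with Thbs1 at 0.88. Vcan and Thbs3 had the next highest r at 0.92, but a Spearman (rank) correlation of 0.6, against 1 for Tnc and Thbs1. In both Vcan and Thbs3 the libraries numbered 1 were above the other 4, and r without them was not computed. Vcan correlated with Tnc at -0.49. These values describe 6 libraries that share the differences between groups and numbers. They are therefore not specific: among the 10608 other genes at 5 CPM or more on average, 309 had an r above 0.95 with Tnc, 276 with Thbs1, 352 with Thbs3 and 71 with Fn1. The nearest to Fn1 were Fndc3b (r 0.992), Serpinb9b (0.991) and Fam214b (0.990), and the nearest to Tnc were Ptpn11 (0.999), Aff1 (0.996) and Thbs1 (0.996). The nearest to Thbs1 were 4930402H24Rik (0.999), Chd1 (0.997) and Ptpn11 (0.997), so Tnc and Thbs1 shared Ptpn11. Thbs2 was nearest to Dtwd1 (0.983), Rab31 (0.981) and Cdv3 (0.977), and Thbs3 to Mterfd2 (0.997), Kat5 (0.996) and Ctdspl2 (0.996). Postn was nearest to Ap4e1 (0.997), Gramd1b (0.990) and Fbxl12 (0.990), and Sparc to Acot8 (0.994), Fkbp11 (0.992) and Tm9sf2 (0.991). Vcan was nearest to Svep1 (0.998), which encodes another large matrix protein, Setd2 (0.997) and Tnrc6b (0.995). Ecm1 was nearest to Cdkn1b (0.995), the overexpressed gene, then Cct6a (0.988) and Fbxo25 (0.979). Ecm1 and Cdkn1b each had groups without overlap, and 36 genes had an r above 0.95 with Ecm1.

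Receptors for these proteins were examined as a list of 15 genes, of which 14 were tested. In the blocked edgeR fit 4 rose and 0 fell, against 3.80% higher and 3.63% lower of all genes, and the fit without pairing called 0. The 4 were the integrin genes Itgav, Itga5 and Itgb1, whose products bind fibronectin, and Cd44, the hyaluronan receptor. Itgav had 236, 263 and 305 CPM in the EV control libraries and 332, 417 and 414 CPM in the p27 OE libraries, without overlap (log2 0.53 ± 0.06, edgeR adjusted p 0.00022). Itga5, the partner of Itgb1 in the classical fibronectin receptor, went from 428, 745 and 819 CPM to 526, 1104 and 1139 CPM, with p27 OE 1 below EV control 2 and 3 as in Tnc (0.45 ± 0.06, adjusted p 0.00135). Itgb1 had 0.35 ± 0.06 (0.00715, and 0.0851 without the libraries numbered 3) and Cd44 0.57 ± 0.07 (0.000913). The thrombospondin receptor genes Cd36 and Cd47 were at -0.08 ± 0.24 and -0.03 ± 0.10, and neither was called. Lrp1, an endocytic receptor for thrombospondins, was higher in every p27 OE library (508 to 596 against 698 to 1163 CPM) but had an adjusted p of 0.165. The adjusted p of Lrp1 was 0.00103 without the libraries numbered 1, 0.514 without those numbered 2 and 0.0118 without those numbered 3. Without the libraries numbered 1, 6 of the receptor genes were called higher.

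Of 20 relatives of the 9 genes and other matrix glycoproteins, 17 were tested, 3 rose and 2 fell in the blocked edgeR fit, against 3.80% higher and 3.63% lower of all genes, and without pairing 0 were called. The aggrecan gene Acan, from the same proteoglycan family as Vcan, rose (0.59 ± 0.09, adjusted p 0.00214), as did Smoc1, a relative of Sparc (0.45 ± 0.10, 0.0191), and the brevican gene Bcan (1.29 ± 0.33, 0.0305), the last from a mean of 0.44 CPM. Tgfbi, the nearest relative of Postn, fell by 0.28 ± 0.06 on the log2 scale (0.0123), and the matrilin gene Matn2 fell by 0.27 ± 0.06 (0.0119). Without the libraries numbered 3 the adjusted p were 0.0776 for Tgfbi, 0.0668 for Matn2, 0.141 for Smoc1 and 0.218 for Bcan, and without those numbered 1 Bcan had 0.0596. The other tenascin genes tested, Tnn (0.09 ± 0.08) and Tnxb (-0.27 ± 0.30), and the thrombospondin genes Thbs4 (0.11 ± 0.09) and Comp (0.29 ± 0.12) were not called.

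The other matricellular genes, the CCN family and osteopontin, were 7 in number, and 4 of the 6 tested rose and none fell in the blocked fit, against 3.80% higher and 3.63% lower of all genes, and without pairing 0 were called. Ctgf, which encodes connective tissue growth factor, had 380, 1581 and 1647 CPM in the EV control libraries and 633, 2752 and 2429 CPM in the p27 OE libraries (0.70 ± 0.06, adjusted p 4.9e-05). Its libraries numbered 1 were below the other 4, as in Tnc and Thbs1. Wisp1 (0.36 ± 0.06, 0.00318), Wisp2 (0.30 ± 0.06, 0.00781) and the osteopontin gene Spp1 (0.51 ± 0.09, 0.0146, and 0.0564 without the libraries numbered 3) also rose. Cyr61, a close relative of Ctgf, had -0.02 ± 0.06 and Nov -0.14 ± 0.06, and neither was called. The difference between Ctgf and Cyr61 was not tested.

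Of 8 hyaluronan synthase and link protein genes, 7 were tested. In the blocked edgeR fit 0 rose and 0 fell, against 3.80% higher and 3.63% lower of all genes, so in a list of this size the count says little. Without pairing 0 were called. In the blocked fit 1 had an unadjusted p under 0.05, the synthase gene Has2 (0.20 ± 0.09, adjusted p 0.191). The link protein genes Hapln1 and Hapln3 had 0.48 ± 0.23 and 0.69 ± 0.48, at means under 3 CPM. Of 10 genes for proteases of versican, procollagen and fibronectin, 2 rose and 0 fell in the blocked fit, against 3.80% higher and 3.63% lower of all genes, and without pairing 0 were called. These were Tll1 (0.44 ± 0.06, adjusted p 0.00175) and Bmp1 (0.23 ± 0.05, 0.0215, and 0.192 without the libraries numbered 3), both of which encode enzymes that trim procollagens. Mmp2 had -0.18 ± 0.06 (0.0590) and was lower within each number. Without the libraries numbered 1 its adjusted p was 0.0469, which makes 1 gene of this list lower. Over the 54 genes tested in these 5 lists the median blocked log2 fold change was 0.08, and 13 rose and 2 fell. The lists were written with earlier results of these libraries known, so their direction is not independent evidence.

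**Figure D5:**
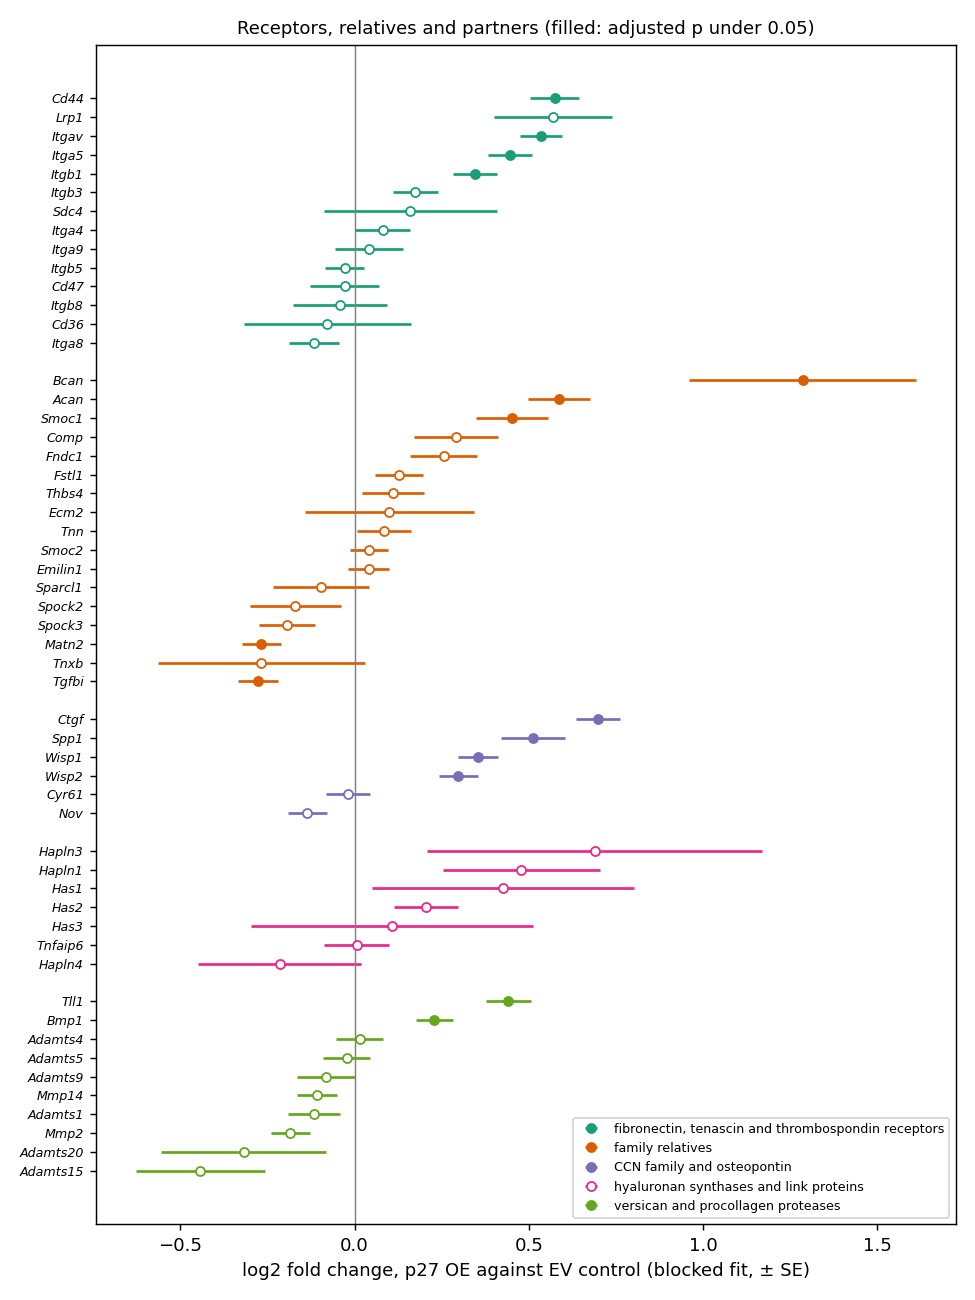
Log2 fold change of p27 OE against EV control in the blocked edgeR fit ± SE (horizontal axis) for the 54 tested receptors, relatives and partners, grouped by list. Filled points have an adjusted p under 0.05: 13 to the right of 0, among them Itgav, Cd44 and Ctgf, and Matn2 and Tgfbi to the left.

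Some markers of other cell types differed between the groups in the blocked fit, where 3.80% of all genes were called higher and 3.63% lower. Without pairing edgeR called 0 genes. All 5 smooth muscle markers were called higher in the blocked fit, with a summed level of 5353 to 8965 CPM in EV control and 6142 to 11039 in p27 OE. So were 3 of the 4 tested of 5 chondrocyte markers (76.5 to 128 against 126 to 216 CPM) and Tubb3 of 4 neural and glial markers (43.0 to 70.2 against 63.7 to 85.8 CPM). The tested chondrocyte marker that was not called was Sox9 (-0.08 ± 0.09). Of 8 fibroblast markers 0 were higher and 2 lower, Pdgfra (-0.48 ± 0.06) and Lum (-0.23 ± 0.06), with a sum of 46228 to 50716 CPM in EV control and 50378 to 52377 in p27 OE. Of the macrophage (43.8 to 54.6 against 39.9 to 70.6 CPM), endothelial (2.03 to 3.54 against 2.82 to 3.58), epithelial (10.6 to 11.99 against 9.39 to 9.65) and skeletal muscle markers (0.100 to 0.704 against 0.209 to 1.23) none was called, and Ckm was at 0 in all libraries. The part of these markers in the levels of the 9 genes was not tested.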

How the data were processed

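RNA was extracted on columns and made into libraries with the TruSeq RNA kit, which does not mark strand, per the labels' protocols. The authors deposited raw counts per gene symbol for the 6 libraries, with no normalization. The submitters' processing notes name the mm10 build, featureCounts 1.4.6 of Subread, TopHat2 2.0.14 and Bowtie2 2.2.6, while the annotation and the strand and multi-mapping settings were not stated in them or in the labels. Titles gave the groups, and 0 columns were unmapped.

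Genes were kept with filterByExpr (minimum count 10, minimum total 15), scaled by TMM and tested with edgeR 4.0.16 in R 4.3.3 (quasi-likelihood F test, robust, two-sided, Benjamini-Hochberg over 14090 genes, threshold 0.05). The design has no block, and a second fit has the library number as a block. Deviations from the group mean correlated at 0.77, 0.42 and 0.54 between libraries of numbers 1, 2 and 3, and at 0.41 and 0.39 between numbers 2 and 3 across the groups. Number 1 enters each group mean and stood apart, which makes numbers 2 and 3 correlate across the groups, so this check says little about 2 against 3. The shared numbers in the titles are the source of the pairing. SE come from the F statistic. DESeq2 1.42.0 and limma-voom (limma 3.58.1) were alternatives, with other scalings and filters and with libraries left out. Log2 CPM used a prior count of 2. The fits were tested on simulated data. The smallest p of an exact permutation test of 3 against 3 libraries is 0.1, and such tests were left out.

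The 9 members, the 5 related lists and the marker lists were chosen with earlier results of these data known. The genes named are the 9 members, for each related list the 3 with the smallest p in the blocked fit and its most changed called gene, and for each member the 3 genes with the highest Pearson r. Other genes in the text were chosen after their values were seen. Positions and exon lengths are from GENCODE on GRCm38, the assembly mm10 names, and promoter stretches from RefSeq.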

Additional observations from a re-analysis of the deposited data

How the results depend on the processing

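Without pairing, the number of genes called was 0 with edgeR and stayed 0 with RLE or upper-quartile scaling, with a filter of at least 1 CPM in 3 libraries and with limma-voom. It was 1 without a filter, 89 with DESeq2, and 0 to 1 when each library was left out. With the replicate block it was 1047, with RLE 1042, with upper-quartile scaling 1219, with total counts without the 9 members 1283, with DESeq2 830 and with limma-voom 829. Leaving out the libraries of each number gave 330 without number 3, 928 without number 2 and 1741 without number 1. Genes called in the 5 related lists numbered 0 in each setting without pairing. With the block they were 15, with RLE 15, with upper-quartile scaling 16, with the total without the 9 members 16, with DESeq2 13 and with limma-voom 16, and 10 to 17 without each number. Genes that differed between the numbers were 4402, 4397 with RLE and 4469 with upper-quartile scaling. Fn1, Tnc, Thbs1, Sparc and Ecm1 had a log2 fold change above 0 in all 21 alternatives, from 0.64 to 0.98 for Fn1, 0.49 to 1.05 for Tnc, 0.34 to 0.78 for Thbs1, 0.11 to 0.31 for Sparc and 0.29 to 0.38 for Ecm1. For the other 4 the sign changed, and the cause was not tested. Thbs2 was at -0.0036 with upper-quartile scaling, -0.0053 with the block and that scaling and -0.011 with the block and the total without the members, and Thbs3 at -0.0084 and -0.014 in the last 2. With libraries left out, the values without and with the block ran from -0.047 to 0.081 and -0.086 to 0.093 for Thbs2, -0.18 to 0.16 and -0.034 to 0.066 for Thbs3, -0.053 to 0.15 and -0.051 to 0.11 for Postn and -0.045 to 0.52 and 0.16 to 0.35 for Vcan, with Vcan below 0 without p27 OE 1. Each member had at least 3188 counts in every library.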
